A study of Mus musculus with 12 samples.

Results

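At 46 of the 41174 mouse gene probes on these arrays, or 0.112%, the 12 arrays fell into a bright set and a dark set with an empty stretch between them. The probes were found by taking each probe's 12 log2 levels in order and looking for the widest gap between neighbours. A probe was kept when that gap was over 2 log2 units, which is 4-fold, when it was wider than the range inside either set, and when at least 2 arrays lay above it. The 46 probes were then sorted by which arrays were bright, which gave 20 different sets of arrays. The probes were chosen by their levels on all 12 arrays, so those levels are described here and not tested. The group labels and the slides were not used in the choice.

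Lung total RNA of B6C6F1 mice labelled female was measured on Agilent arrays, with 1 array per sample and 3 biological replicates in each of 4 groups. The offspring smoke and offspring air groups were prenatal mice whose dams breathed smoke or filtered air, and the dam smoke and dam air groups were mature pregnant mice. Smoke was mainstream smoke of 3R4F cigarettes, a reference cigarette made for research, at 1 part in 50 with filtered air, delivered in daily sessions of 4 h, 5 days a week, during the 18 days of gestation. Whether offspring were littermates or their lungs were pooled is not stated. The lung RNA was labelled with Cy5 and a universal mouse reference with Cy3, and the labels do not state which of these the deposited intensities hold.

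An expression array carries oligonucleotides fixed at known places, each made to match a stretch of 1 transcript, and the brightness of a spot follows how much labelled RNA binds there. A spot stays at background where the RNA that matches it is absent or too scarce to see. The lung before birth is an organ still forming, whereas the lung of the pregnant dam is mature. The probe identifiers were not paired with genes in the files (0 of 41174 identifiers matched the gene table), so no gene, position or sequence is given, and the lung label was not checked against marker genes.

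Levels are given as a percent of the 75th percentile of the same array over all gene probes. Levels at or under a background floor of 1.16% were set to that value, so a probe at the floor has only an upper bound. The 75th percentile ran from 491 to 917 intensity units over the offspring smoke arrays, 840 to 1164 over offspring air, 839 to 1101 over dam smoke and 906 to 945 over dam air. On each array 64.6% to 67.3% of the probes exceeded the floor. Offspring smoke replicates 2 and 3, at 491 and 549 units, were the dimmest arrays.

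The gap was far wider than usual in these probes, as the rule demands. Its median was 2.51 log2 units over the 46 probes and 0.22 over all gene probes. The gap was over 3 in 16 of the 46 probes and over 6 in 5, with a maximum of 7.79. In 17 probes no dark array was at the floor, so dark means only below the gap. All arrays of the dark set were at the floor in 22 probes, whose gaps are therefore lower bounds. At the threshold, A_51_P195374 had a gap of 2.02 and was kept, and A_52_P343306 had a gap of 2.00 (1.9997 before rounding) and was left out.

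At this gap threshold the sides of the arrays rarely followed the 4 groups. In 43 of the 46 probes at least 1 group had arrays on both sides of the gap, and in 3 probes every group lay whole on 1 side. This count depended on 1 array. Without dam smoke replicate 3 the same rule gave 73 probes, and 27 of the new ones had the 3 offspring smoke arrays alone as the dark set. Narrower gaps differed. Among the 20 sets, offspring smoke alone as the dark set had the most further probes with a gap over 1. There were 248 among 3072 further probes with that split, and 194 of the 248 met the demand on width. The offspring smoke arrays were split in 7 probes, the offspring air arrays in 35, the dam smoke arrays in 9 and the dam air arrays in 4. In 31 probes offspring air was the only split group. Both dam groups were wholly bright in 26 probes and wholly dark in 10, so the dams differed among themselves in 10.

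The 12 arrays were on 3 slides of 4 arrays, and 0 of the 46 probes parted a whole slide from the other two. Offspring air replicate 1 was on slide 1, and replicates 2 and 3 were on slide 3 beside dam smoke replicate 3 and dam air replicate 3. Of the 35 probes at which offspring air was split, 26 parted replicate 1 from replicates 2 and 3. In these 26 probes slide and array cannot be told apart within offspring air.

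Arrays of 1 group can be compared by how many probes put them on the same side. Offspring air replicates 2 and 3 shared a side on 37 of the 46 probes. Offspring air replicate 1 shared a side with replicate 2 on 15 and with replicate 3 on 16, fewer than with any dam array (30 to 32). Replicates 2 and 3 likewise shared a side with every dam array more often than with replicate 1, on 25 to 27 and on 18 to 21 probes. Pairs of offspring smoke arrays shared a side on 40 to 43 probes, pairs of dam smoke arrays on 39 to 41 and pairs of dam air arrays on 42 to 46. An offspring smoke and an offspring air array shared a side on 20 to 28, and a dam smoke and a dam air array on 40 to 43. Dam air replicates 1 and 3 shared a side on all 46. These counts describe only the 46 probes, which the rule chose from these same arrays. Over all gene probes the log2 intensities of offspring air replicate 1 correlated at 0.9866 and 0.9845 with replicates 2 and 3. Replicates 2 and 3 correlated at 0.9887, and replicate 1 with the dam arrays at 0.9867 to 0.9905. With the dam arrays, replicate 2 correlated at 0.9861 to 0.9883 and replicate 3 at 0.9820 to 0.9871, so the ranges of the replicates overlapped. Whether each array holds the sample its label names was not tested, since no probe was paired with a gene.

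The single widest gap was in a set of 5 probes that were bright on the 6 dam arrays and on offspring air replicate 1, and dark on the other 5 offspring arrays. A_51_P181705 was the probe with that gap. Its intensity was 2.32, 1.84 and 1.97 units on offspring smoke replicates 1, 2 and 3, and 2520, 3.50 and 6.95 units on those of offspring air. The dam smoke arrays gave 2486, 2979 and 2616 units and the dam air arrays 2750, 2514 and 2713. As a level, offspring air replicate 1 stood at 299.9% of the 75th percentile, just above the dam arrays, which ran from 257% to 299.6%. The other 5 offspring arrays were at the floor, at least 221-fold under the dimmest bright array.

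A_52_P267391 and A_51_P392518 parted the arrays in the same way. A_52_P267391 was at the floor on all 3 offspring smoke arrays and on offspring air replicates 2 and 3, and offspring air replicate 1 read 204%. Dam smoke read 254%, 209% and 251%, and dam air 219%, 179% and 226%. Offspring air replicate 1 lay within the range of the dam arrays. A_51_P392518 was at the floor on the same 5 offspring arrays and read 140% on offspring air replicate 1. Its mean was 125 ± 5.98% over the dam smoke arrays and 126 ± 6.95% over the dam air arrays (SD, n = 3 each). Here offspring air replicate 1 was the brightest of the 7 bright arrays.

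The remaining probes of this set were dimmer. A_52_P371494 was at the floor on the 5 dark arrays and between 15.6% and 25.4% on the 7 bright ones. A_52_P634829 stayed above the floor throughout, at 3.45%, 3.52% and 4.93% on the offspring smoke arrays and 40.4%, 3.98% and 3.26% on the offspring air arrays. The dam arrays read 40.9% to 51.7%. In all 5 probes the gap was over 3 log2 units, and these were the only 5 of the 46 probes with 7 bright arrays.

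A second set of 7 probes was the reverse of the first within offspring air. These probes were bright on offspring air replicates 2 and 3 and dark on the other 10 arrays, including all 3 offspring smoke arrays. A_51_P402994 read 231% and 342% on offspring air replicates 2 and 3 and was at the floor elsewhere, a gap of at least 199-fold. A_51_P479715 read 194% and 282% on the same arrays and was at the floor on the other 10. In both probes replicate 3 was brighter than replicate 2.

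Offspring air replicate 3 was also the brighter of the pair at 4 of the other 5 probes of this set, the exception being A_52_P179250 at 6.55% and 5.80% in replicates 2 and 3. A_51_P180423 was the only 1 of the 7 with dark arrays above the floor. Its levels were 4.26%, 5.36% and 3.50% on the offspring smoke arrays and 1.16% (the floor), 63.6% and 83.1% on the offspring air arrays. On dam smoke arrays they were 5.61%, 2.01% and 8.43%, and all 3 dam air arrays were at the floor. Within the dark arrays every smoke array, of offspring and dams, was therefore above every air array for this probe.

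The 3 offspring smoke arrays were dark in both of these opposite sets. Of their 36 levels over these 12 probes, 30 were at the floor, and the other 6 were those of A_52_P634829 and A_51_P180423 given above. The dam arrays and offspring air replicate 1 were bright in the first set alone, and offspring air replicates 2 and 3 in the second alone.

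A further 18 probes were dark on offspring air arrays alone. Of these, 8 were dark on replicate 1, 3 on replicate 3, 4 on replicates 2 and 3, and 3 on replicates 1 and 3. In all 18 the offspring smoke and dam arrays were bright.

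Among the 8 probes dark on offspring air replicate 1, the gap ran from 4.18-fold to 15.6-fold. The widest was at A_51_P361620, where offspring smoke read 25.8%, 29.2% and 28.1%, and offspring air the floor, 58.2% and 56.2%. Dam smoke averaged 26.0 ± 7.82% and dam air 29.1 ± 10.8% (SD, n = 3 each). The other offspring air arrays were the brightest of all 12 here, so the group mean hides a low and a high side. At A_52_P146711 offspring smoke read 32.1%, 36.3% and 33.0%, and offspring air 2.88%, 64.6% and 46.4%. The dam means were 27.5 ± 4.49% for smoke and 23.2 ± 0.944% for air (SD, n = 3 each), so the same offspring air arrays were the brightest.

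In 5 of these 8 probes the 3 offspring smoke arrays also stood above every other bright array. At A_51_P239177 the offspring smoke arrays read 71.8%, 75.5% and 67.6% and the offspring air arrays 4.14%, 26.4% and 24.2%, against 18.7% to 27.6% on the dam arrays. At A_51_P456721 the offspring smoke arrays read 86.6% to 90.9% and the offspring air arrays 7.08%, 32.2% and 37.6%, against 31.4% to 41.5% on the dam arrays. These probes thus had 3 tiers, with offspring smoke on top and offspring air replicate 1 at the bottom. The other 3 probes with these tiers were A_52_P323151, A_52_P157450 and A_51_P232434, at which offspring smoke read 18.5% to 23.6%, 118% to 135% and 380% to 491%. On the other 8 bright arrays the same probes read 5.997% to 10.8%, 60.4% to 84.2% and 168% to 245%.

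The 4 probes dark on offspring air replicates 2 and 3 had their bright arrays close together, apart from offspring air replicate 1. For A_51_P230175 the levels were 18.8%, 22.7% and 20.1% with offspring smoke and 63.8%, 1.34% and the floor with offspring air. Dam smoke averaged 24.4 ± 3.08% and dam air 25.6 ± 2.46% (SD, n = 3 each). For A_51_P502798 offspring smoke read 36.0% to 36.9% and offspring air 74.2%, 5.32% and 5.22%, against 42.6% to 48.3% on the dam arrays. Offspring air replicate 1 was the brightest array at 3 of these 4 probes, so the replicates of 1 group held both ends of the range. At A_52_P622941, the exception, it was the dimmest of the 10 bright arrays.

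Of the 3 probes dark on offspring air replicates 1 and 3, A_52_P570717 and A_52_P152133 were bright elsewhere. A_52_P570717 gave 252%, 333% and 267% on the offspring smoke arrays and 11.7%, 121% and 2.89% on the offspring air arrays. Dam smoke gave 156%, 155% and 255%, and dam air gave 164%, 166% and 151%. Offspring air replicate 2 was the dimmest of the 10 bright arrays, and dam smoke replicate 3 stood with offspring smoke and above the other 5 dam arrays.

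A_52_P152133 had the same order among the offspring air arrays. The offspring smoke arrays gave 456%, 554% and 454%, and the offspring air arrays 23.1%, 209% and 6.47%. Dam smoke gave 362%, 336% and 604%, and dam air gave 336%, 338% and 297%. Dam smoke replicate 3 was the brightest array at this probe. The third probe, A_52_P353242, was at the floor on both dark arrays and between 6.60% and 16.7% on the bright ones.

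The 3 probes dark on offspring air replicate 3 alone were A_52_P311725, A_51_P404463 and A_52_P581100. Their levels on that array were the floor, the floor and 9.25%. On the other 11 arrays the lowest levels were 10.01%, 6.49% and 38.6%. At A_51_P404463 and A_52_P581100 the offspring smoke arrays were above every other array, at 11.6% to 13.2% and 60.0% to 66.1%. This order, too, was not counted over all probes.

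Only 3 of the 46 probes followed the groups whole, and in each the 3 offspring smoke arrays stood alone against the other 9. A_51_P508781 stood at 4.89%, 5.20% and 4.66% on the offspring smoke arrays and at 43.5%, 56.4% and 61.7% on the offspring air arrays. It stood at 44.4%, 54.2% and 53.3% on the dam smoke arrays and at 53.4%, 49.4% and 54.9% on the dam air arrays. A_51_P195374, the brightest probe of the 46, averaged 139 ± 10.5% over the offspring smoke arrays and 1109.7 ± 383% over the offspring air arrays (SD, n = 3 each). The dam means were 654 ± 59.3% for smoke and 709 ± 118% for air (SD, n = 3 each), so offspring smoke was dark in both.

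A_51_P281568 was the reverse of these, with offspring smoke bright. The offspring smoke arrays read 28.4%, 29.5% and 28.6%, and the offspring air arrays the floor, 4.09% and 3.49%. Dam smoke averaged 3.34 ± 1.48% and dam air 3.47 ± 1.31% (SD, n = 3 each). The 3 offspring smoke levels differed from each other by 0.05 log2 units, against a gap of 2.51. At A_52_P212650 offspring smoke was dark at 10.7% to 11.1%, together with offspring air replicate 3 at 2.55%, and the other 8 arrays read 63.4% to 140%.

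Dam arrays fell on both sides in 10 probes, and 5 of these had more than 2 bright arrays. A_52_P400905 was bright on dam smoke replicate 3, at 58.9%, and on the dam air arrays, at 53.5% to 72.5%. Dam smoke replicates 1 and 2 read 1.27% and 1.75% at this probe, with offspring smoke at 3.78% to 6.88% and offspring air at 1.30% to 2.56%. A_51_P422751 was bright on dam smoke replicate 3, at 96.5%, and on dam air replicates 1 and 3, at 32.9% and 53.9%, while dam air replicate 2 read 1.57%. The dam smoke arrays were thus split at both probes, and the dam air arrays at the second.

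A_51_P151182 was bright on dam smoke replicate 2, at 37.3%, and on dam air replicates 1 and 3, at 16.2% and 24.7%, and no offspring array was above the floor. A_52_P121342 was bright on 6 arrays, namely offspring air replicates 2 and 3 at 84.0% and 78.8%, dam smoke replicate 2 at 304% and the 3 dam air arrays at 75.6% to 294%. Its offspring smoke arrays read 11.1% to 13.0%. A_51_P326826 was also bright on 6 arrays, with offspring smoke at 17.8% to 21.0%, offspring air replicate 2 at 9.57%, dam smoke replicate 3 at 12.8% and dam air replicate 2 at 23.8%. These 5 probes shared no set of bright arrays with any other of the 46.

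The last 7 probes were bright on 2 arrays taken from 2 different groups and at or near the floor on the rest. Their bright levels were low, from 4.74% to 9.04%, and their gaps lay near the threshold, from 2.03 to 2.49 log2 units. They made up all 7 probes in which the offspring smoke arrays were split. A_52_P515857 and A_52_P649151 had the same pair of bright arrays, offspring smoke replicate 3 at 7.53% and 4.98% and dam smoke replicate 1 at 5.07% and 8.48%. The other 5 pairs occurred once each.

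A bright level on 1 array alone was more frequent but was outside the rule. At 310 gene probes a gap over 2 that was wider than both ranges left 1 bright array. The number of such probes per array ran from 31 to 45 in offspring smoke, 21 to 24 in offspring air, 19 to 29 in dam smoke and 13 to 33 in dam air. Offspring air was thus not the group with most lone bright arrays, although it was the group most often split among the 46 probes.

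Other probes parted the arrays in the same way with narrower gaps. At the split of the 5 probes bright on the dams and offspring air replicate 1, only 2 further probes had a gap over 1, A_52_P1187949 with 1.78 and A_52_P47829 with 1.74. At the split of offspring air replicates 2 and 3 as bright arrays there were 21, led by A_52_P429450 with 1.88, and with the same replicates as dark arrays there were 14, led by A_52_P542860 with 1.89. Offspring air replicate 1 as the dark array had 65, led by A_51_P343517 with 2.37, which was left out because its bright arrays ranged over 2.42. Offspring smoke as the dark set had 248 further probes with a gap over 1, led by A_52_P24696 with 1.97.

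Replicate 3 of offspring air as the dark array had 25 further probes with a gap over 1, led by A_51_P145453 with 2.59 and a bright range of 3.37. Replicates 1 and 3 of offspring air as dark arrays had 7, led by A_52_P343306. The pair of offspring smoke replicate 3 and dam smoke replicate 1 as bright arrays had 1, A_52_P246587 with 1.10. The set of offspring smoke as dark arrays thus had the most probes of intermediate gap by count. It also had the most further probes of any gap at its split, 3072. There were 977 with offspring air replicate 1 dark, of which 65 had a gap over 1. With offspring air replicates 2 and 3 dark there were 171, of which 14 had such a gap. The lead of offspring smoke was therefore one of number and not of share. With offspring smoke bright there were 2967, of which 21 had a gap over 1.

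How the 46 probes fared in a test between groups was counted beside all probes, and because the same values chose them, nothing is read from these counts. Of the 46, 34 were above the floor on at least 3 arrays and entered the fit. For offspring smoke against offspring air, limma called 14 of the 34 at an adjusted p under 0.05, where 53.2% of all probes tested were called. For offspring smoke against dam smoke it called 11, where 46.0% of all probes were called. The 5 probes dark in offspring smoke and bright on the dams and offspring air replicate 1 were all among these 11 and none of them among the 14.

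For offspring air against dam air limma called 0 of the 34, where 0.152% of all probes were called, and 15 had an unadjusted p under 0.05, as did 16.0% of all probes. For dam smoke against dam air it called 0 of the 34, where 0% of all probes were called, and 1 had an unadjusted p under 0.05, as did 4.13% of all probes. A fit with array weights called 17 of the 34 for offspring air against dam air, where 9.90% of all probes were called. Without offspring air replicate 1 the same comparison called 12 of the 34, where 4.35% of all probes were called.

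Dam smoke replicate 3 bore on the number of probes found and on how many of them followed the groups. Without it the rule gave 73 probes in place of 46, and 27 of the new ones had the 3 offspring smoke arrays dark against the other 8. None of these 27 had a gap over 2 on all 12 arrays, so dam smoke replicate 3 had to lie inside the gap. Its median place was 0.622 of the way from the dark to the bright side. On the 9 arrays without offspring air the rule gave 25 probes, of which 19 were among the 46, and on the 6 dam arrays alone it gave 9, of which 5 were among the 46. On the 9 arrays without offspring smoke it gave 43, of which 36 were among the 46.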

How the data were processed

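The authors' deposited table held linear intensity values for 41267 rows on 12 arrays, of which 93 were control probes. Per the labels the lung RNA carried Cy5 and a reference Cy3, while the scan names carry a 1-colour code; background subtraction before deposit is not stated in the labels. Each array was divided by its 75th percentile over 41174 gene probes, raised to 1.16% where lower, and log2 transformed. That floor is the largest among the 12 arrays of the scaled 95th percentile of 50 control spots that match no mouse transcript. The 28200 probes exceeding it on 3 or more arrays were fitted with limma 3.58.1 in R 4.3.3, 1 mean per group over 12 arrays, two-sided, with Benjamini-Hochberg adjustment. Groups and replicates came from the titles and slides from the descriptions. Since separate litters are not stated, p-values reflect only how these samples vary, and the number of arrays limits precision. The members, lists and naming rule were chosen with earlier results of these data known. Named probes were the markers of the set, up to 2 per set with the widest gap and, for each shared set, the nearest probes outside; further members were named after their values were seen. The fixed gene lists were not analysed here, since identifiers were not paired with genes. The steps were tested on simulated data. Python 3.11.15, numpy 2.4.6 and pandas 2.3.3 were used.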

Additional observations from a re-analysis of the deposited data

How the results depend on the processing

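The number of probes was 46 and stayed within 1.5 times of that with median scaling, quantile normalization, no scaling, a doubled floor or no demand on width (32 to 52). The probes themselves changed more. In this order 41, 44, 32, 31 and 46 of the original 46 were kept. It was 445 with a gap over 1, 16 with a gap over 3 and 106 without the floor. With 1 array left out it ran from 39 to 73, the highest without dam smoke replicate 3. Of alternatives chosen after seeing the data, the rule gave 25 probes without offspring air, 43 without offspring smoke and 9 on the dam arrays alone. Members called by limma are given next with the percent of all probes called under the same setting. With 1 array left out, counts and percents are each given as a range, whose ends need not come from the same fit. Of the 46 probes 34 were tested, 39 without scaling, 33 with a doubled floor and 33 or 34 with 1 array left out. For offspring smoke against offspring air 14 were called (53.2%), and 10 to 20 with 1 array left out (44.5% to 54.3%). For offspring smoke against dam smoke 11 were called (46.0%), 8 to 16 with 1 array left out (33.6% to 49.7%), 18 with array weights (67.7%) and 18 in a fit of the compared groups alone (48.3%). For offspring air against dam air 0 were called (0.152%), 0 to 12 with 1 array left out (0% to 4.35%), 17 with array weights (9.90%), 2 without scaling (0.0618%), 1 with a doubled floor (0.735%) and 1 in a fit of the compared groups alone (0.00355%). For dam smoke against dam air 0 were called (0%), 0 to 1 with 1 array left out (0% to 0.0249%) and 1 with array weights (3.60%). The estimate of the array weights stopped short of its convergence tolerance. Same-numbered samples of different groups did not deviate together (2 of 18 pairs had r above 0.1, from -0.334 to 0.217), so the numbers were not taken as pairs. With a replicate block the 4 counts in this order were 13 (50.0%), 11 (42.6%), 0 (0%) and 0 (0%). With slide as a fixed block they were 11 (43.1%), 10 (32.5%), 0 (0%) and 0 (0%). Where a count moved, the cause was not tested. Levels under the floor have no order, and single arrays limit what a split within a group of 3 can show.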
